A study of Mus musculus with 18 samples.

Results

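The genes described here are the 3 Foxa paralogs, Foxa1, Foxa2 and Foxa3, and the long non-coding RNA gene Falcor, listed in the mouse annotation as 9030622O22Rik. They were chosen by name, as 4 of the 15544 genes with a deposited level, and all 4 had a level in each of 18 RNA-seq libraries. The libraries hold total RNA of lung epithelial cells of the mouse, taken as EpCAM+ cells with magnetic beads. There are 5 wild-type libraries (replicates 1 to 5), 5 Falcor-/- libraries with both Falcor copies mutated (6 to 10), 4 Foxa2+/- libraries with 1 Foxa2 copy mutated (11 to 14), and 4 libraries labelled as a double heterozygote, Falcor+/-;Foxa2+/- (15 to 18). The series gives an age of 10 to 12 weeks with the wild-type animals and repeats none for the mutants. The labels do not say how either allele was made, which part of Falcor was removed, whether the mutant alleles of the double heterozygote lie on 1 chromosome or on both, the strain, or whether animals were pooled. No treatment is given. Since the labels do not state that each library came from its own animal, p-values measure the spread between these libraries.

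FOXA proteins are forkhead transcription factors that bind DNA in closed chromatin and open it for other factors, and for that reason are called pioneer factors. Foxa1 and Foxa2 are expressed together in lung epithelium from early development on, where they are known to act redundantly in branching, in surfactant genes and in the restraint of mucous differentiation. Foxa3 is best known from liver and pancreas and from mucous airway cells. Falcor is transcribed next to Foxa2, and the series asks how it bears on Foxa2 expression and on the homeostasis of the lung epithelium. The comparisons below ask how the 3 paralogs and Falcor stand to one another when Falcor, a Foxa2 copy, or a copy of each is mutated, and whether Falcor and Foxa2 vary together between libraries of 1 genotype.

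Foxa2 (ENSMUSG00000037025) and Falcor (ENSMUSG00000086141, a long intergenic non-coding RNA) lie on the minus strand of chromosome 2, with 2673 bases between them and Falcor downstream of Foxa2 in GENCODE vM21. Foxa1 (ENSMUSG00000035451) lies on chromosome 12 and Foxa3 (ENSMUSG00000040891) on chromosome 7. The 250 bases before a RefSeq start of each gene (GRCm38.p6, minus strand, the start nearest the GENCODE gene start) are shown because these are the promoters of the genes compared, and because a forkhead factor can bind the promoter of a forkhead gene. Searched on both strands were TGTTTAC, the core that forkhead factors are known to bind, a first variant of it, TGTTTGC, and a further variant, TATTTAC. The motifs share no position in these windows, and matches stand in capitals.
Foxa2, chr2:148046970-148047219: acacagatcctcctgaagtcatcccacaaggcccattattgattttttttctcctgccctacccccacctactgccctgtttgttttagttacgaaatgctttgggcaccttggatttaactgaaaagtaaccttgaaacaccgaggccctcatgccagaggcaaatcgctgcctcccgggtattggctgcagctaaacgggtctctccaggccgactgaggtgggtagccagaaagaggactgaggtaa
Falcor, chr2:148040349-148040598: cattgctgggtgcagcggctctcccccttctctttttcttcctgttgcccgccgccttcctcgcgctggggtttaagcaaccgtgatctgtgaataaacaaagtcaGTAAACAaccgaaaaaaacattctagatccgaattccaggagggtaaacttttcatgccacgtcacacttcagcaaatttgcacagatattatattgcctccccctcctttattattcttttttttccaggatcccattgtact
Foxa1, chr12:57546112-57546361: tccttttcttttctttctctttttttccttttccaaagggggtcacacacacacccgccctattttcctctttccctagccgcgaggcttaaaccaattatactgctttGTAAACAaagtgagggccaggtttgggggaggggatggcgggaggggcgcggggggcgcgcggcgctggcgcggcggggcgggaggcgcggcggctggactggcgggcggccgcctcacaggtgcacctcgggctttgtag
Foxa3, chr7:19023540-19023789: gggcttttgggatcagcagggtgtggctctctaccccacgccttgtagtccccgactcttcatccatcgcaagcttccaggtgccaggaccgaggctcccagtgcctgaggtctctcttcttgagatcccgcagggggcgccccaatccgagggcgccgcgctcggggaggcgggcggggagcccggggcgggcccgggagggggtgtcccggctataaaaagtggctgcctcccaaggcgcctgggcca
The Falcor window held 1 match, 144 bases before the start, and the Foxa1 window held 1, 141 bases before the start, both to TGTTTAC on the other strand (read as GTAAACA above). The Foxa2 and Foxa3 windows held none of these letters. Among 32851 windows of the same length before RefSeq starts, 3.17% held TGTTTAC, 4.3% TGTTTGC, 2.73% TATTTAC and 9.73% any of them. RefSeq lists 26 starts for Falcor, of which 16 had TGTTTAC in their window, and 3 for Foxa2, of which 0 had it. Many of these windows overlap. The matches are a description of letters, and no binding was measured here.

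All levels are on the deposited log2 scale, 1 unit being a doubling. The libraries share their distribution of levels to within 0.0512 over the top 90% of ranks, and lower ranks were not compared. Mean levels of Foxa3 outside Foxa2+/- (percentile 2.42 to 8.47) and of Falcor in Falcor-/- (3.43) lay below those ranks. For these, an equal distribution between libraries was not shown. Levels are not known to be per transcript length, so levels of different genes are not compared. A gene counts as changed at an adjusted p below 0.05 in a limma fit to 15249 genes in all 18 libraries. The share of all tested genes so called was 6.11% in Foxa2+/- against wild type, 5.15% in the labelled double heterozygotes against Falcor-/-, and 2.43% between the labelled double heterozygotes and Foxa2+/-. It was 9.47% in Falcor-/- against wild type, 14.8% in the labelled double heterozygotes against wild type and 16.7% in Foxa2+/- against Falcor-/-. Split by direction against wild type, 5.23% passed upward and 4.24% downward in Falcor-/-, 1.96% passed upward and 4.15% downward in Foxa2+/-, and 7.21% upward and 7.57% downward in the labelled double heterozygotes. These background counts depended on single libraries: in Falcor-/- against wild type, 1444 genes passed, 354 without wild-type replicate 1 and 3926 without Falcor-/- replicate 7. The share of all genes whose ranges do not overlap between genotypes was not counted. Lack of overlap is therefore given below as a description only.

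The sorted cells carried epithelial markers at a high level and also RNA of other cell types, in amounts that differed between genotypes. The mean level of 12 epithelial markers lay between 13.61 and 13.74 in wild-type libraries. It lay between 13.74 and 14.03 where both Falcor copies were mutated, between 13.81 and 13.89 for Foxa2+/- and between 13.86 and 14.09 for the labelled double heterozygotes, so that each mutant library but replicate 10 exceeded all wild-type libraries. The mean of 12 endothelial markers lay between 11.88 and 13.32 in wild type and between 11.54 and 13.24 in Falcor-/-, but between 10.75 and 11.26 in Foxa2+/- and between 10.37 and 10.90 in the labelled double heterozygotes. Of these 12, 10 fell against wild type in each of the latter genotypes and 0 rose. The mean of 9 macrophage markers lay between 12.05 and 12.64 in wild type and between 12.10 and 12.59 in Foxa2+/-, but between 9.45 and 12.37 in Falcor-/- and between 9.80 and 10.96 in the labelled double heterozygotes. Of 6 alveolar type 1 markers, 4 fell in Foxa2+/- and 4 in the labelled double heterozygotes. Of 6 alveolar type 2 markers, 0 passed in either genotype (limma, also 0 at an unadjusted p below 0.05). The type 2 markers lie near the top of the level distribution, where the libraries share nearly the same levels. A change that left their ranks unaltered could not be seen there, so these counts do not show that type 2 RNA was unchanged. In bulk RNA, fewer cells of a type and less RNA per cell cannot be told apart.

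Falcor RNA was almost lost where both copies were mutated and was higher than in wild type in both genotypes with 1 Foxa2 copy. In wild type its level was 10.72, 10.21, 9.68, 9.71 and 10.59 in replicates 1 to 5, and in Falcor-/- it was 6.13, 5.39, 6.01, 7.27 and 6.23 in replicates 6 to 10. It was 11.46, 11.96, 11.66 and 11.72 in Foxa2+/- and 11.61, 11.65, 11.86 and 11.50 in the labelled double heterozygotes. The wild-type, Falcor-/- and Foxa2+/- ranges did not overlap, whereas the ranges of Foxa2+/- and the labelled double heterozygotes did. Within wild type the level spanned 1.04 units, a wider range than in Foxa2+/- (0.50) or in the labelled double heterozygotes (0.36).

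Falcor ranked first by p of all 15249 genes in Falcor-/- against wild type, at 6.36% of the wild-type level (log2 change -3.98, SE 0.27, limma adjusted p = 6.35e-07). Among Falcor-/- libraries the remaining level ran from 3.6% of the wild-type mean in replicate 7 to 13.3% in replicate 9. Falcor was 2.86-fold the wild-type level in Foxa2+/- (95% confidence interval 1.88 to 4.36) and 2.78-fold in the labelled double heterozygotes (1.83 to 4.23), with limma adjusted p = 0.00325 and 0.00242. The double-heterozygous label names loss of a Falcor copy, and a lower Falcor level than in Foxa2+/- was not seen: the difference was -0.042 (95% confidence interval -0.68 to 0.60, limma adjusted p = 0.954). The Falcor level therefore does not tell the libraries labelled double-heterozygous from Foxa2+/- libraries, and every direction drawn from them below rests on their label. The alleles that give the RNA in these libraries were not told apart by the deposited levels.

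Foxa2 RNA fell in both genotypes with 1 Foxa2 copy. The Foxa2 level was 12.94, 12.99, 13.03, 13.03 and 12.83 in wild type. It was 12.38, 12.38, 12.35 and 12.47 in Foxa2+/-, and 12.58, 12.34, 12.40 and 12.12 in the labelled double heterozygotes. Every library of these 8 lay below every wild-type library. Foxa2 was at 67.3% of wild type in Foxa2+/- (log2 change -0.57, SE 0.10, limma adjusted p = 0.00245) and at 65.8% in the labelled double heterozygotes (-0.60, SE 0.10, limma adjusted p = 0.000891). As fold, the 95% confidence intervals were 0.578 to 0.783 and 0.565 to 0.766. The exact permutation p was 0.00794 for each, the smallest that 5 against 4 libraries can give.

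In Falcor-/- libraries Foxa2 was 12.85, 12.58, 12.99, 12.83 and 12.42 in replicates 6 to 10. Replicates 6, 8 and 9 stood within the wild-type range, 6 and 9 near its lower end. The other 2 of the 5 lay below all of wild type, replicate 10 among the Foxa2+/- libraries. The mean was 85.2% of wild type (log2 change -0.23, 95% confidence interval -0.44 to -0.023), and the limma adjusted p was 0.115 against an unadjusted 0.0313. The exact permutation p was 0.0794. The order of Foxa2 means was wild type (12.97), Falcor-/- (12.74), Foxa2+/- (12.39) and the labelled double heterozygotes (12.36). Neighbours at either end did not pass the adjusted test, and the 0.34 between Falcor-/- and Foxa2+/- passed at a limma adjusted p of 0.0353, in a comparison where 8.56% of all genes passed downward. That call was lost in 7 of 9 fits that left out 1 library (replicate 6, 8, 9, 11, 12, 13 or 14), and leaving out replicate 8 gave the smallest difference, -0.28 (adjusted p = 0.0705). Between Falcor-/- and the labelled double heterozygotes Foxa2 differed by -0.37 (limma adjusted p = 0.0464), a call lost in 6 of 9 such fits (replicate 6, 8, 9, 16, 17 or 18, with differences from -0.39 to -0.29).

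**Figure D1:**
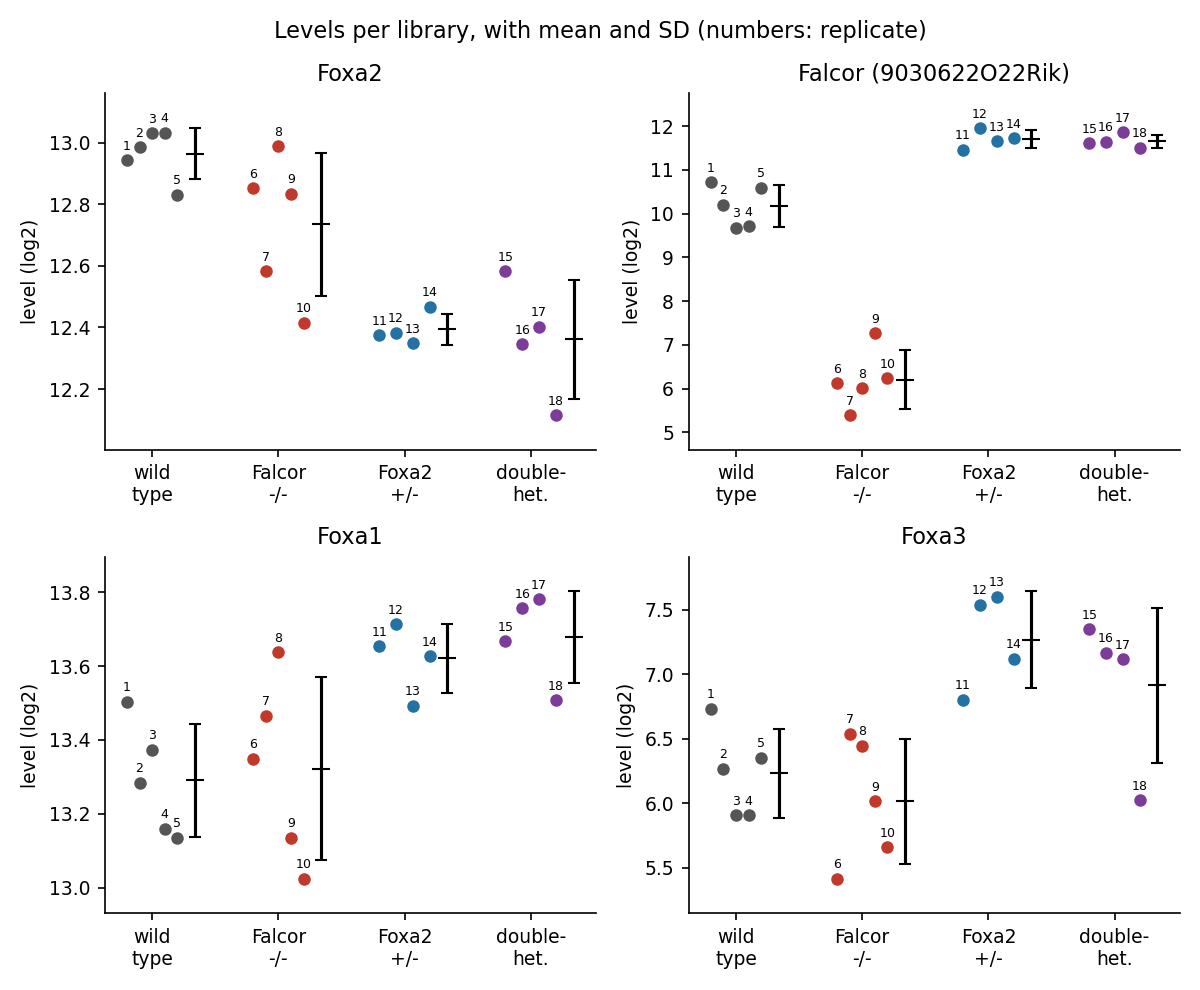
Log2 level of each gene in each library (points, with the replicate number) by genotype, with the genotype mean and SD (bars). Foxa2 in the 8 libraries with 1 Foxa2 copy lies between 12.12 and 12.58, below all wild-type libraries, while Falcor there lies between 11.46 and 11.96, above them.

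Foxa1, the paralog that shares most of its known lung roles with Foxa2, was slightly higher where Foxa2 was lower by genotype. Its level was 13.50, 13.28, 13.37, 13.16 and 13.14 in wild type, and 13.67, 13.76, 13.78 and 13.51 in the labelled double heterozygotes. The ranges touched without overlap: the lowest double-heterozygous library, replicate 18, and the highest wild-type library, replicate 1, both read about 13.5. Foxa1 was 1.31-fold the wild-type level in the labelled double heterozygotes (log2 change 0.39, SE 0.11, limma adjusted p = 0.0258), with a 95% confidence interval of 1.11 to 1.54 and an exact permutation p of 0.0159. Beside this, 7.21% of all genes tested passed upward in that comparison. The call was lost in 5 of the 9 fits without 1 library: without wild-type replicate 4 or 5 (0.35 each, adjusted p = 0.0597 and 0.0606), and without double-heterozygous replicate 15, 16 or 17 (0.35 to 0.39, adjusted p = 0.0588 to 0.0799).

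In Foxa2+/- libraries Foxa1 was 13.65, 13.71, 13.49 and 13.63, of which replicate 13 lay just under wild-type replicate 1. The mean was 1.26-fold wild type (log2 change 0.33, 95% confidence interval 0.10 to 0.56) and did not pass after adjustment (limma adjusted p = 0.0908, exact permutation p = 0.0238). The Falcor-/- libraries, at 13.35, 13.47, 13.64, 13.14 and 13.02, spanned the wild-type range on both sides, and the mean difference was 0.031 (limma adjusted p = 0.852, 95% confidence interval -0.19 to 0.25). Between the labelled double heterozygotes and Foxa2+/- the difference was 0.056 (-0.19 to 0.30, limma adjusted p = 0.829). The order of means was thus the labelled double heterozygotes (13.68), Foxa2+/- (13.62), Falcor-/- (13.32) and wild type (13.29), and no pair of neighbours in that order passed the adjusted test (0.30 between Foxa2+/- and Falcor-/-, limma adjusted p = 0.0656). That difference passed without Falcor-/- replicate 7 (0.34, adjusted p = 0.0375) or 8 (0.38, 0.0241), and so did the 0.36 between the labelled double heterozygotes and Falcor-/- (0.39 and 0.43, adjusted p = 0.0478 and 0.0177, against 0.0693 with all libraries).

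Foxa3 had deposited levels close to the minimum mean of 6 set for testing, and a larger spread between libraries than Foxa1 or Foxa2. It was 6.73, 6.27, 5.91, 5.91 and 6.35 in wild type and 5.42, 6.54, 6.45, 6.02 and 5.66 in Falcor-/-. In Foxa2+/- libraries it was 6.80, 7.54, 7.60 and 7.12, each above every wild-type and every Falcor-/- library. In the labelled double heterozygotes replicates 15, 16 and 17, at 7.35, 7.17 and 7.12, also lay above all of those, while replicate 18, at 6.02, lay among them.

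Foxa3 was 2.38-fold higher in Foxa2+/- than in Falcor-/- (log2 difference 1.25, SE 0.31, limma adjusted p = 0.0155), where 8.10% of all genes passed upward. The exact permutation p was 0.00794, and the call was lost in 1 of 9 fits, without Foxa2+/- replicate 13 (1.14, adjusted p = 0.0599). Against wild type the Foxa2+/- mean was 2.04-fold (95% confidence interval 1.31 to 3.20) and narrowly missed the adjusted threshold (limma adjusted p = 0.0562, exact permutation p = 0.0159). It passed without Foxa2+/- replicate 11 (1.19, adjusted p = 0.0472). In the labelled double heterozygotes the mean was 1.60-fold wild type (1.02 to 2.51, limma adjusted p = 0.147, exact permutation p = 0.0794). This value rested on replicate 18: without it the log2 difference was 0.98 in place of 0.68 and passed (limma adjusted p = 0.0306). Against Falcor-/- the labelled double heterozygotes differed by 0.90 (limma adjusted p = 0.097), and by 1.195 without replicate 18, which passed (0.0279). Falcor-/- differed from wild type by -0.22 (-0.83 to 0.39, limma adjusted p = 0.610). In the order of means, Foxa2+/- (7.27), the labelled double heterozygotes (6.91), wild type (6.23) and Falcor-/- (6.02), no neighbours passed the adjusted test.

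**Figure D2:**
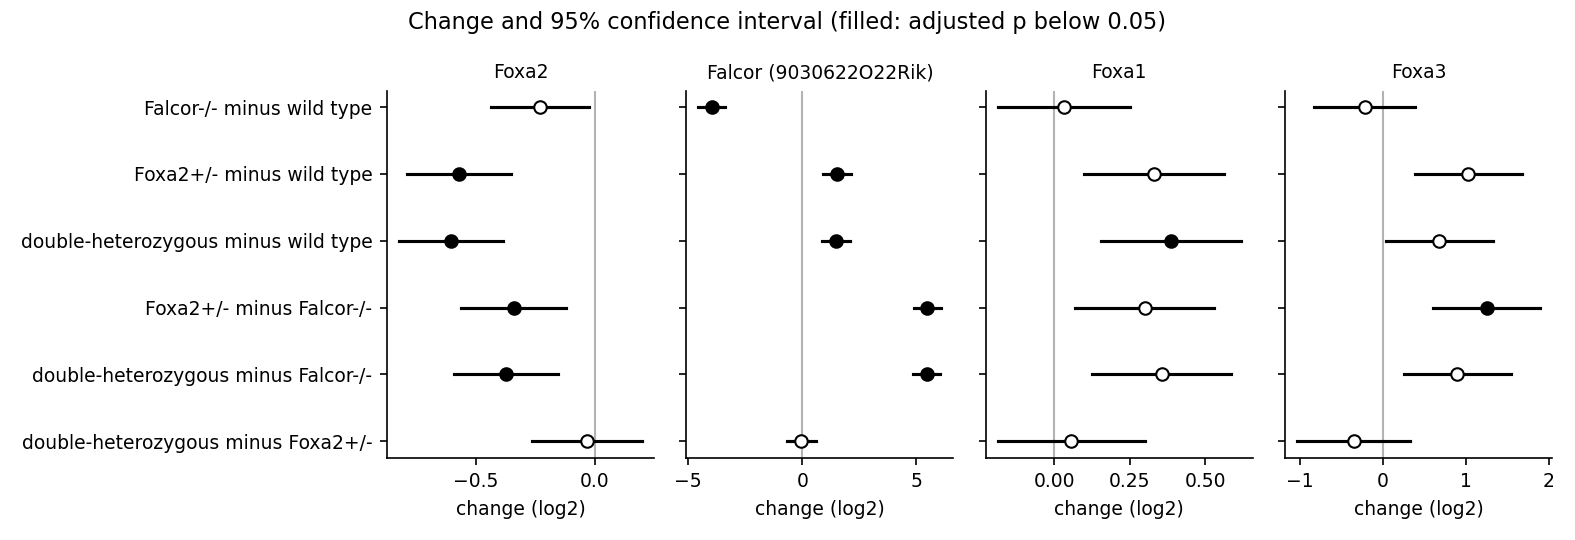
Log2 difference (point) and 95% confidence interval (line) of each gene in the 6 comparisons between genotypes, filled where the adjusted p is below 0.05, with an axis of its own for each gene. Foxa2 and Falcor passed in both comparisons of a 1-copy genotype with wild type, Foxa1 in 1 of them (0.39) and Foxa3 in neither.

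Of the 4 genes, 1 passed in Falcor-/- against wild type (Falcor), 2 in Foxa2+/- (Foxa2 and Falcor) and 3 in the labelled double heterozygotes (Foxa1, Foxa2 and Falcor), beside the background shares of 9.47%, 6.11% and 14.8% given above. Foxa2 is mutated in the latter genotypes, and Falcor in the first and, by the label, also in the double heterozygotes. The comparisons with wild type share the 5 wild-type libraries. Foxa1 and Foxa3 are therefore the genes whose level no allele of the study alters directly, and their changes are set out in the next paragraphs against the number of Foxa2 copies and on other scales.

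With the genotypes grouped by Foxa2 copy number, a contrast added after the data were seen, both paralogs were higher with 1 copy (8 libraries) than with 2 (10 libraries). Foxa1 was 1.27-fold higher (log2 difference 0.34, SE 0.08, limma adjusted p = 0.00751) and Foxa3 1.95-fold higher (0.97, SE 0.22, limma adjusted p = 0.00713), while 12.1% of all genes passed in the same contrast, 6.03% upward and 6.07% downward. Foxa2 itself was at 0.721-fold (-0.47, SE 0.07, limma adjusted p = 0.00034). All 3 passed in each of 18 fits that left out 1 library, in which Foxa1 ran from 0.31 to 0.38 and Foxa3 from 0.89 to 1.11. The 1-copy libraries are also those with the low endothelial marker levels (10.37 to 11.26 against 11.54 to 13.32), whose part in the result was not tested apart from the covariate fit given below.

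The balance of the paralogs shifted with the fall of Foxa2. Wild-type libraries had a Foxa1 level minus Foxa2 level of 0.33 on average (SD 0.15, n = 5), and for Falcor-/- libraries this was 0.59 (SD 0.21, n = 5). With 1 Foxa2 copy the average was 1.23 for Foxa2+/- (SD 0.09, n = 4) and 1.32 for the labelled double heterozygotes (SD 0.16, n = 4). In the wild-type libraries it ran from 0.13 to 0.56 and in the 8 libraries with 1 Foxa2 copy from 1.08 to 1.41, without overlap, while Falcor-/- ran from 0.30 to 0.88. In multiples of the wild-type ratio, Foxa1 to Foxa2 stood at 1.20 in Falcor-/-, 1.87 in Foxa2+/- and 1.99 in the labelled double heterozygotes. For Foxa3 to Foxa2 these multiples were 1.01, 3.04 and 2.44, and for Falcor to Foxa2 0.0745, 4.26 and 4.23. These ratios cancel any scaling shared by both genes of a library, and they combine the changes already given, so no further test was made.

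A scale set by the epithelial markers takes the same value from every gene of a library. That value, the marker mean, averaged 13.90 for Falcor-/-, 13.86 for Foxa2+/- and 13.98 for the labelled double heterozygotes, against 13.67 for wild type. Each change against wild type therefore moved downward by the same amount for all genes of a comparison. Larger falls of Foxa2 and smaller rises of Foxa1 follow from this shift and are no separate finding about the paralogs. With each level taken relative to the mean of the 12 epithelial markers of its library, Foxa2 in Falcor-/- was 0.46 below wild type and passed (SE 0.08, limma adjusted p = 0.00303). Relative to Epcam alone, the surface protein used for the sort and a scale added after the data were seen, it was 0.52 below and passed (limma adjusted p = 0.0207). Foxa2 in Foxa2+/- and in the labelled double heterozygotes was 0.76 and 0.92 below wild type on the epithelial scale (limma adjusted p = 0.000266 and 6.75e-06). On that scale 4779, 2003 and 5595 of 15249 genes passed against wild type in Falcor-/-, Foxa2+/- and the labelled double heterozygotes. From the deposited levels these counts were 1444, 932 and 2254, so passing on the epithelial scale is not particular to Foxa2.

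The Foxa1 difference of the labelled double heterozygotes shrank to 0.074 on the epithelial scale (limma adjusted p = 0.626) and to 0.085 relative to Epcam (0.702), and that of Foxa2+/- to 0.14 and 0.23, neither passing. In Falcor-/- the Foxa1 difference turned from 0.031 to -0.20 and -0.26, neither passing. Between 1 and 2 Foxa2 copies the Foxa1 difference was 0.21 on the epithelial scale and 0.29 relative to Epcam, and no longer passed (limma adjusted p = 0.0707 and 0.132). Foxa3 still passed in that contrast, at 0.83 (limma adjusted p = 0.0113) and 0.91 (0.029), but its difference of the labelled double heterozygotes from wild type, which had not passed at 0.68, was 0.37 and 0.38 on these scales. Of the 12 markers that set the scale, 4 rose in Falcor-/- libraries against wild type, 2 did so in Foxa2+/- and 3 in the labelled double heterozygotes, Krt8 being among those that rose in the latter pair, so the scale itself moved with genotype. Whether it follows the amount of epithelial RNA or a response of the markers was not tested.

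**Figure D3:**
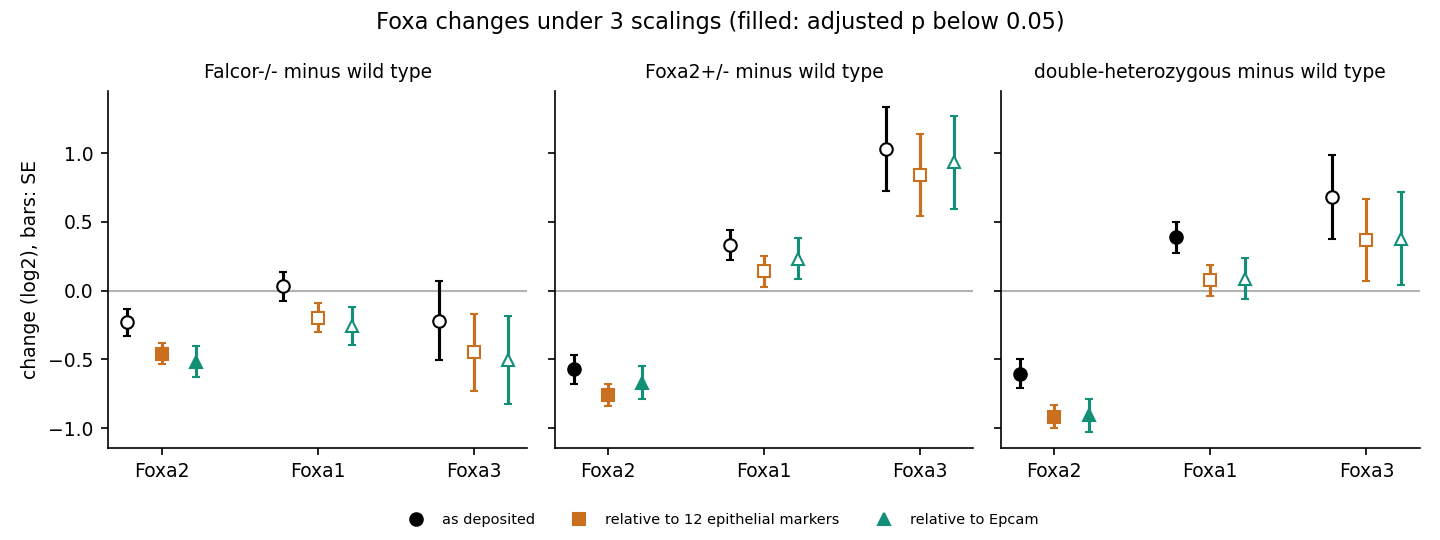
Log2 change of Foxa2, Foxa1 and Foxa3 against wild type in the 3 mutant genotypes (mean difference and SE), from the deposited levels (circles), relative to 12 epithelial markers (squares) and relative to Epcam (triangles), filled where the adjusted p is below 0.05. Foxa2 lies below 0 on every scale, reaching -0.92, and the Foxa1 change of the labelled double heterozygotes shrinks from 0.39 to 0.074. On either marker scale all genes of a genotype move by the same amount.

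With the endothelial marker mean as a covariate, no difference of a Foxa paralog from wild type passed in Foxa2+/- or in the labelled double heterozygotes. Of all 15249 genes, 0 and 2 passed in these comparisons, so the absence of a call is not particular to the paralogs. The Foxa2 estimates were then -0.92 and -1.01 (limma adjusted p = 0.238 and 0.131), and the Foxa1 estimates turned to -0.14 and -0.16. Between 1 and 2 copies Foxa1 turned from 0.34 to -0.088 and Foxa3 went from 0.97 to 0.61 (limma adjusted p = 0.9997 for each). The endothelial means of the 1-copy libraries, at most 11.26, lay below every library with 2 copies, at least 11.54, so in this fit the marker level and the copy number largely cannot be told apart.

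Within genotypes, Falcor and Foxa2 did not vary together to a degree these libraries could show. After each genotype mean was subtracted, Pearson's r between Foxa2 and Falcor was 0.069 and Spearman's rho -0.071 over 18 libraries (permutation p = 0.868 and 0.805, libraries permuted within genotype). Across genotypes, by contrast, the 8 libraries with the highest Falcor levels were those with 1 Foxa2 copy and a low Foxa2 level. In wild type, replicates 3 and 4 had the highest Foxa2 (13.03 each) and the lowest Falcor (9.68 and 9.71), and replicate 5 had the lowest Foxa2 (12.83) with the second highest Falcor (10.59). In Falcor-/-, replicate 7 combined low Foxa2 (12.58) with the lowest Falcor, and replicate 10 had the lowest Foxa2 (12.42) with the second highest Falcor level (6.23). Without the Falcor-/- libraries, whose Falcor RNA is a small remainder, r was -0.22 over 13 libraries (permutation p = 0.396). In single genotypes, 4 or 5 libraries are too few for a correlation. Foxa2 varied little in wild type and Foxa2+/- (SD 0.08 and 0.05), which limits what covariation can be seen.

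Of the 6 pairs among the 4 genes, the highest r values over 18 libraries were 0.51 for Foxa1 with Foxa2 and 0.51 for Foxa1 with Foxa3 (permutation p = 0.114 and 0.0585, Benjamini-Hochberg adjusted over the 6 pairs 0.341 for each). The Spearman rho values were 0.21 and 0.54. Without the 2 libraries farthest from the median of the first-named gene, r for Foxa1 with Foxa2 was 0.11, so that value rested on those libraries, whereas r for Foxa1 with Foxa3 was 0.41. For the other pairs r was 0.29 for Foxa2 with Foxa3, -0.23 for Foxa1 with Falcor and 0.16 for Foxa3 with Falcor, all with an adjusted permutation p of 0.695 or more. Thus 0 of 6 pairs passed by Pearson and 0 of 6 by Spearman at an unadjusted 0.05 as well.

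In the 13 libraries other than Falcor-/-, Foxa3 and Falcor correlated by Pearson's r and, after adjustment, not by Spearman's rho. In wild type the libraries ranked alike in both genes at the ends: replicate 1 was highest in Foxa3 (6.73) and in Falcor (10.72), and replicates 3 and 4 were lowest in both. Replicates 3 and 4 were tied in Foxa3, at 5.91 each. In Foxa2+/- replicate 11 was lowest in both (6.80 and 11.46), and in the labelled double heterozygotes replicate 18 was lowest in both (6.02 and 11.50). At the upper end the genes differed in these genotypes. In Foxa2+/- replicate 13 was highest in Foxa3 (7.60) and replicate 12 in Falcor (11.96). In the labelled double heterozygotes replicate 15 was highest in Foxa3 (7.35) and replicate 17 in Falcor (11.86). Pearson's r was 0.64 over these 13 libraries (permutation p = 0.00555, adjusted over the 6 pairs 0.0333) and Spearman's rho 0.60 (0.0319, adjusted 0.191). Without the 2 libraries farthest from the median as well, a step added after the data were seen, r was 0.77 over 11 libraries (permutation p = 0.0433, adjusted 0.26). With the Falcor-/- libraries, in which replicate 7 had the lowest Falcor and the highest Foxa3 of its genotype, r was 0.16 and did not pass.

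**Figure D4:**
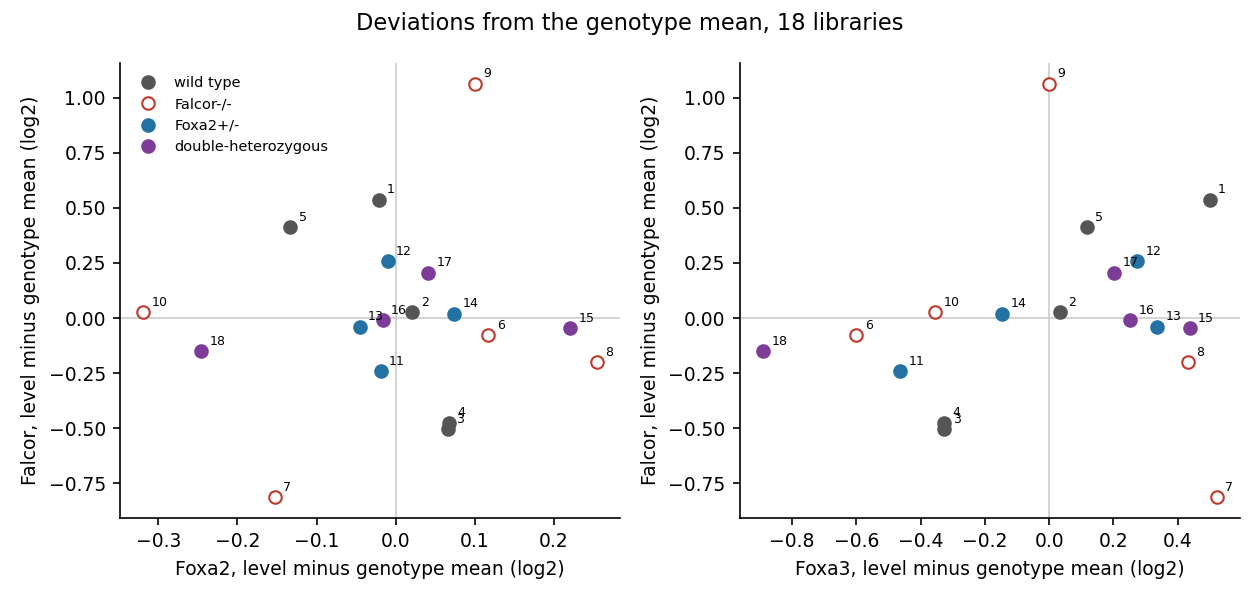
Level minus genotype mean (log2) of Falcor against Foxa2 (left) and against Foxa3 (right) in 18 libraries, coloured by genotype with the replicate number, Falcor-/- as open circles. Left, r is 0.069 over all 18 points; right, r is 0.16 over all and 0.64 over the 13 filled points.

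The 4 genes differed in how steady they were within a genotype. The within-genotype SD, pooled over genotypes, was 0.16 for Foxa2 and 0.17 for Foxa1, under the median of 0.21 over all genes tested. It was 0.46 for both Foxa3 and Falcor, above that of 85.9% and 86.1% of the genes. The pooled Falcor value does not hold for each genotype. Its SD was 0.68 among Falcor-/- libraries (n = 5) and 0.48 among wild-type libraries (n = 5). With 1 Foxa2 copy it was smaller, at 0.21 for Foxa2+/- (n = 4) and 0.15 for the labelled double heterozygotes (n = 4). As a description, the genes whose genotype-centred levels were most like each of the 4 were sought among 12218 genes with a symbol and a mean level of at least 8, over 18 libraries whose depth is unknown and whose content of other cell types differed, as given above. Nearest to Foxa2 were Mzf1 (r = 0.86), Bhlhb9 (0.86) and Adsl (0.83), and nearest to Foxa1 were Cpox (0.89), Polr2b (0.89) and Zfp213 (0.87). Nearest to Foxa3 were Ano9 (0.88), Plppr2 (0.86) and Crat (0.85), and nearest to Falcor were Arglu1 (0.78), Sybu (0.78) and Nipal2 (0.77). The ranking for Falcor includes the Falcor-/- libraries, where its RNA is a small remainder and its spread was widest. With genotype differences left in, Falcor was most like Ftx (0.87), Aox3 (0.87) and Hacd3 (0.85), Foxa2 like Ppp4r4 (0.81) and Mmp2 (0.79), Foxa1 like Sema4b (0.91) and Hs3st3a1 (0.91), and Foxa3 like Plppr2 (0.91) and Crat (0.89). Plppr2 and Crat for Foxa3 and Cpox for Foxa1 stood among the nearest 3 both ways. Both rankings use the same deviations within genotypes, so this overlap is no separate support. Each r named is among the highest of 12218, and none was tested.

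The other forkhead genes encode DNA-binding proteins with the same fold. The share of them that changed against wild type was near that of all genes in Falcor-/- and above it with 1 Foxa2 copy. Each share rests on few genes, and the largest changes were falls of mesenchymal genes. Of 21 tested, 2 fell and 0 rose in Falcor-/- against wild type, 2 fell and 1 rose in Foxa2+/-, and 4 fell and 1 rose in the labelled double heterozygotes. These are 9.52%, 14.3% and 23.8% of the list, beside 9.47%, 6.11% and 14.8% of all genes. Their median changes were -0.13, 0.042 and -0.12, beside 0.029, 0.039 and 0.069 over all genes. Foxo6 rose from 9.47 ± 0.17 (SD, n = 5) to 9.99 ± 0.17 (n = 4) in Foxa2+/- and to 10.24 ± 0.14 (n = 4) in the labelled double heterozygotes (limma adjusted p = 0.0417 and 0.00199). No library of either genotype overlapped with wild type, whose highest was 9.63. Foxo4 fell by 0.22 in Falcor-/- and by 0.26 in the labelled double heterozygotes (limma adjusted p = 0.0404 and 0.0148). Foxf1 and Foxf2, factors of lung mesenchyme and endothelium, fell in both genotypes with 1 Foxa2 copy, with changes of -2.43 and -2.54 in Foxa2+/- and of -2.97 and -2.47 in the labelled double heterozygotes (limma adjusted p = 0.000887, 0.00446, 8.33e-05 and 0.00324). Foxf2 averaged 5.49 and 5.56 in these genotypes, under the minimum mean of 6 that was set over all libraries. Of 10 mesenchymal markers 5 fell in Foxa2+/- and 8 in the labelled double heterozygotes, and 10 of 12 endothelial markers fell in each, a movement whose part in the Foxf1 and Foxf2 result was not tested. Foxj1, the master regulator of motile cilia, and Foxp1, Foxp2 and Foxp4, known from lung development, changed by less than 0.5 and passed in 1 of 12 tests, with Foxp1 falling by 0.41 in the labelled double heterozygotes (limma adjusted p = 0.0327).

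**Figure D5:**
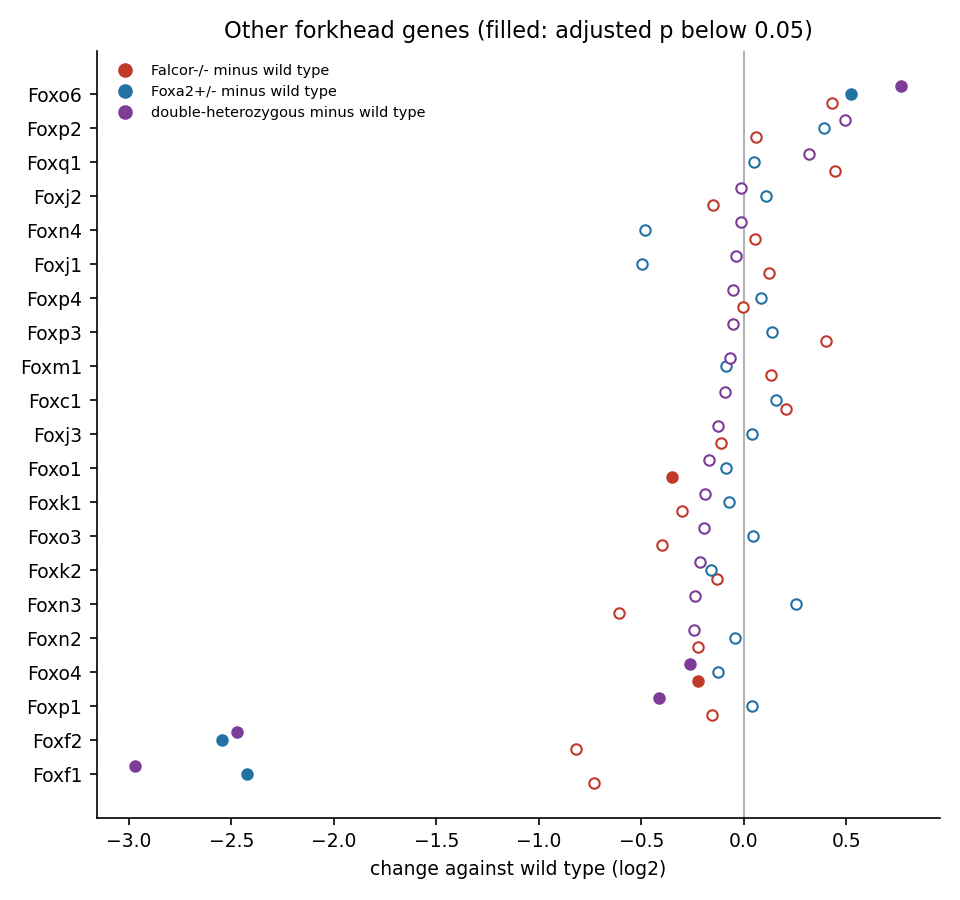
Log2 change against wild type of 21 forkhead genes other than the Foxa paralogs in Falcor-/- (red), Foxa2+/- (blue) and the labelled double heterozygotes (purple), filled where the adjusted p is below 0.05. Foxf1 and Foxf2 lie between -2.97 and -2.43 in both genotypes with 1 Foxa2 copy, and Foxo6 is the gene with a filled point above 0.

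Among 29 other transcription factors of lung epithelium, 1 rose and 1 fell in Falcor-/-, 1 rose and 1 fell in Foxa2+/-, and 4 rose and 0 fell in the labelled double heterozygotes, with medians of -0.037, 0.15 and 0.195. These counts are 6.9%, 6.9% and 13.8% of the list, near the 9.47%, 6.11% and 14.8% of all genes. Ehf, an ETS factor of epithelia, rose by 0.47 in Foxa2+/- and by 0.49 in the labelled double heterozygotes (limma adjusted p = 0.0182 and 0.00846). Elf5, an ETS factor of distal lung progenitors, was 12.13 ± 0.04 (SD, n = 5) in wild type and 12.79 ± 0.15 (n = 4) in the labelled double heterozygotes, without overlap (limma adjusted p = 0.00211). Irx3, an Iroquois homeobox factor, rose by 0.46 in the same libraries (limma adjusted p = 0.00738), and Id2, an inhibitor of basic helix-loop-helix factors, rose by 0.36 in Falcor-/- (limma adjusted p = 0.024).

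Of 30 genes that the field ties to FOXA factors in the lung, 2 rose and 0 fell in Falcor-/-, 2 rose and 1 fell in Foxa2+/-, and 7 rose and 1 fell in the labelled double heterozygotes, with medians of -0.077, 0.078 and 0.27, all beside the medians over all genes given above. The shares that passed were 6.67%, 10.0% and 26.7%, beside 9.47%, 6.11% and 14.8% of all genes. The keratin Krt8 rose by 0.44 in Foxa2+/- and 0.29 in the labelled double heterozygotes (limma adjusted p = 0.00584 and 0.0376), and its partner Krt18 by 0.31 in Falcor-/- and 0.38 in Foxa2+/- (0.0495 and 0.0283). Vegfa, the endothelial growth factor made by alveolar epithelium, fell by 0.59 in Foxa2+/- and by 0.70 in the labelled double heterozygotes (limma adjusted p = 0.038 and 0.0083). In each of these genotypes 10 of 12 endothelial and 4 of 6 alveolar type 1 markers fell as well. How the Vegfa result relates to either was not tested. Clic3, an intracellular chloride channel protein, rose by 0.48 in Falcor-/- and 0.52 in the labelled double heterozygotes (limma adjusted p = 0.0495 and 0.0347). Between the labelled double heterozygotes and Foxa2+/-, 0 genes of these 3 lists passed with limma, and 2 of 21, 5 of 29 and 3 of 30 had an unadjusted p below 0.05.

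Of the 20 annotated neighbours of Foxa2 and Falcor, 10 on each side, 12 could be tested. Against wild type, 2 rose and 1 fell in Falcor-/-, 1 rose and 2 fell in Foxa2+/-, and 1 rose and 2 fell in the labelled double heterozygotes, where 9.47%, 6.11% and 14.8% of all genes passed. Xrn2, a nuclear RNA exonuclease that acts in transcription termination, rose by 0.20 in Falcor-/- and 0.21 in Foxa2+/- (limma adjusted p = 0.0404 and 0.0483), and Kiz, a centrosome protein, rose by 0.30 in Falcor-/- and 0.35 in the labelled double heterozygotes (0.0493 and 0.0233). The genes that fell, Thbd and Cd93, are known from endothelial cells. Thbd changed by -1.19, -2.02 and -2.997 in the 3 mutant genotypes in the order above (limma adjusted p = 0.0285, 0.000947 and 3.69e-05), and Cd93 by -1.80 in Foxa2+/- and -3.16 in the labelled double heterozygotes (0.0181 and 0.00014). In these last genotypes 10 of 12 endothelial markers fell as well, and in Falcor-/- 0 of 12 passed with limma (6 at an unadjusted p below 0.05), with a median of -0.67. The part of these cells in the Thbd and Cd93 result was not tested.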

How the data were processed

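The authors deposited 1 file of log2 expression levels per library, covering 15544 Ensembl genes. The submitters' processing notes name STAR, limma and mm9; for the read counter, annotation, strand setting and versions the sources used here give nothing. Libraries differ by at most 0.0512 at any of the top 90% of ranks, so a level is relative to the rest of its library, its depth is unknown and no counting interval can be given. Symbols, chromosomes and gene order came from GENCODE vM21 (14994 of 15544 identifiers matched), and promoters from RefSeq on GRCm38.p6, in which all 4 genes were found.

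Genes with a mean below 6 were left out (295 genes, none of the 4 described). limma 3.58.1 in R 4.3.3 was then fitted to 15249 genes in all 18 libraries, with 1 mean per genotype and a trended prior (17 total degrees of freedom, 14 of them residual). P-values were adjusted by Benjamini-Hochberg over all genes in each of 6 comparisons, and a change is the first genotype minus the second. The 4 genes were also given an exact 2-sided permutation test on means, whose smallest p is 0.00794 for 5 libraries against 5 or 4 and 0.0286 for 4 against 4. Correlations within genotypes used 100000 permutations within genotype. The scripts were tested on simulated data.

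Alternatives were the filter, the limma prior, library weights, a fit of only 2 genotypes, the exact test, scaling to epithelial markers, median centring, the endothelial mean as covariate and leaving out libraries. Scaling to Epcam, the contrast of Foxa2 copy number and 1 correlation subset were added after seeing the data. The genes named beyond the 4 are, for each list, up to 4 genes changed in the most comparisons with wild type (ties by smallest p), the likest genes of each of the 4 (up to 3, 1 of which is not reported here), and a few named after their values were seen (Foxp1, Foxp2, Foxp4, Foxj1, Kiz, Xrn2, Thbd and Cd93). The members and lists were chosen with earlier results of these data known. Lum and Nkg7 of the marker lists were not analysed here.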

Additional observations from a re-analysis of the deposited data

How the results depend on the processing

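Depth is unknown, so it limits every level to an unknown degree. Of 309 recalculations other than leaving out a library, 252 kept direction and side of the threshold, 19 lost a call, 16 gained one and 22 turned in sign. Those that did not keep both follow as log2 changes, and the cause was not tested. No paired analysis was possible because the replicate numbers 1 to 18 are used once each. With library weights, Foxa1 in Falcor-/- against wild type turned to -0.054, while Foxa2 there (-0.27, limma adjusted p = 0.0485), Foxa1 and Foxa3 in Foxa2+/- (0.32 and 0.997) and Foxa3 in the labelled double heterozygotes (0.82) passed. Against Falcor-/-, weights gave 0.37 for Foxa1 in Foxa2+/- and 0.43 for Foxa1 and 1.23 for Foxa3 in the labelled double heterozygotes, all passing, and -0.26 for Foxa2, which did not pass. Between the labelled double heterozygotes and Foxa2+/-, Foxa2 turned to 0.033.

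Relative to epithelial markers, Foxa1 in Falcor-/- turned to -0.20 and Foxa2 passed at -0.46. Foxa1 lost its call in the labelled double heterozygotes (0.074) and by copy number (0.21), and turned to -0.067 between the labelled double heterozygotes and Foxa2+/-. Relative to Epcam these values were -0.26, -0.52, 0.085, 0.29 and -0.15, and Foxa2 lost its calls against Falcor-/- in Foxa2+/- (-0.15) and in the labelled double heterozygotes (-0.39).

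With the endothelial covariate, Foxa1 turned to -0.13 in Falcor-/-, -0.14 in Foxa2+/- and -0.16 in the labelled double heterozygotes. In the latter genotypes the calls of Foxa2 (-0.92 and -1.01) and Falcor (2.17 and 2.23) were lost. Against Falcor-/-, Foxa1 turned to -0.015 and -0.034, and Foxa2 (-0.58 and -0.67) and, in Foxa2+/-, Foxa3 (0.99) lost their calls. Between the labelled double heterozygotes and Foxa2+/-, Foxa1 turned to -0.019 and Falcor to 0.061. By copy number Foxa1 turned to -0.088, and Foxa2 (-0.80) and Foxa3 (0.61) lost their calls. In a fit of only 2 genotypes Foxa1 (0.33) and Foxa3 (1.03) passed in Foxa2+/- against wild type, and Foxa2 lost its calls against Falcor-/- (-0.34 and -0.37). By exact permutation test 0.33, 1.03 and, for Foxa1 in the labelled double heterozygotes against Falcor-/-, 0.36 passed unadjusted. Without the intensity trend Foxa3 in Foxa2+/- passed (1.03) and Foxa2 in the labelled double heterozygotes against Falcor-/- did not (-0.37).

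Correlations turned to -0.16 for Foxa2 with Falcor on the epithelial scale, to -0.22 for Foxa2 with Falcor and 0.32 for Foxa1 with Falcor without Falcor-/-, where Foxa3 with Falcor passed (0.64). With the endothelial mean regressed out Foxa1 with Falcor turned to 0.043. Without the 2 farthest libraries Foxa2 with Foxa3 turned to -0.25. Without Falcor-/- and the 2 farthest libraries Foxa2 with Falcor turned to -0.59, Foxa2 with Foxa3 to -0.50 and Foxa1 with Foxa3 to -0.37.

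When each library was left out in turn, 343 of 378 results kept direction and side of the threshold. The ranges of those that did not were, against wild type, -0.048 to 0.11 for Foxa1 in Falcor-/-, 0.92 to 1.19 for Foxa3 in Foxa2+/-, and 0.35 to 0.44 for Foxa1 and 0.53 to 0.98 for Foxa3 in the labelled double heterozygotes. Against Falcor-/- they were 0.23 to 0.38 for Foxa1, -0.42 to -0.28 for Foxa2 and 1.10 to 1.40 for Foxa3 in Foxa2+/-, and 0.28 to 0.43 for Foxa1, -0.45 to -0.29 for Foxa2 and 0.75 to 1.20 for Foxa3 in the labelled double heterozygotes. Between the latter and Foxa2+/- they were -0.11 to 0.050 for Foxa2 and -0.12 to 0.044 for Falcor, and for the correlation of Foxa2 with Falcor -0.099 to 0.15. The libraries that decide a call are named in the report. Foxa2 and Falcor kept their calls in the 9 such fits of each 1-copy genotype against wild type.

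The count of changed genes by limma moved by over 1.5 times. Against wild type in Falcor-/-, Foxa2+/- and the labelled double heterozygotes it was 1444, 932 and 2254. It was 252, 0 (659 at an unadjusted p below 0.05) and 2 with the endothelial covariate, 4779, 2003 and 5595 relative to epithelial markers, and 3446, 1947 and 4939 with library weights. Leaving out 1 library gave 354 to 3926, 556 to 1118 and 1342 to 2435.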
